A study of Mus musculus with 6 samples.

Results

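The transcription factors that drive epithelial-mesenchymal transition (EMT), and the cadherin and filament genes whose exchange marks it, were examined in sorted cells of mammary tumours from MMTV-Wnt-1 mice. The 10 genes were chosen by name: the zinc-finger factors Snai1, Snai2, Zeb1 and Zeb2, the helix-loop-helix factors Twist1 and Twist2, the homeobox factor Prrx1, the filament gene Vim, and the cadherins Cdh1 and Cdh2. They were 10 of 15027 genes tested and were covered by 26 of the 45101 probe sets of the array, counting only probe sets whose annotation gives 1 gene symbol. All 10 passed the filter on dim values, and 24 of their 26 probe sets did. In this transgenic line the promoter of the mouse mammary tumour virus drives Wnt1 in the mammary gland, and both populations carry the transgene. Tumours of 3 mice were sorted by fluorescence, and each population of each mouse was hybridised to 1 Affymetrix array. The population labelled tumorigenic was gated CD24+Thy+CD45-. The population labelled nontumorigenic is described by negating that gate, and it is unclear from the label if CD45+ cells belong to it. Strain background, age and treatment of the mice are not stated in the labels. The comparison of the populations asks whether the cells called tumorigenic carried an EMT-like transcript profile relative to the other cells of the same tumours.

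EMT is the loss of epithelial junctions and polarity with gain of a motile, mesenchymal state, and it is used in development, wound repair and tumour spread. Snail and Zeb proteins bind E-boxes in the promoters of epithelial genes, Cdh1 (E-cadherin) above all, and recruit corepressors there, while Twist factors, which also bind E-boxes, and Prrx1 promote the mesenchymal programme. In a cadherin switch, E-cadherin is lost while N-cadherin, the product of Cdh2, is gained. In the mammary gland these genes are not restricted to transitional tumour cells: Snai2 is a gene of basal epithelial cells, Twist2 and Prrx1 are genes of fibroblasts, and Zeb2 and Vim are also expressed in leukocytes.

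To show the sites these repressors recognise, 4 promoters are printed, chosen after the values were seen: that of Snai1, the only member with a promoter in the sequence table that held the site, and those of Muc1, Epcam and Crb3, 3 of the epithelial genes that held more than 1 site. Each line gives the 250 bases before the start of the gene, 5' to 3' on the gene's strand, from RefSeq on GRCm38.p6. Crb3 had 2 promoters in the table, and the one with the most sites is printed. Capitals mark the E-box, CAGGTG or its reverse complement CACCTG.
Snai1 (chr2:167537945-167538194, + strand): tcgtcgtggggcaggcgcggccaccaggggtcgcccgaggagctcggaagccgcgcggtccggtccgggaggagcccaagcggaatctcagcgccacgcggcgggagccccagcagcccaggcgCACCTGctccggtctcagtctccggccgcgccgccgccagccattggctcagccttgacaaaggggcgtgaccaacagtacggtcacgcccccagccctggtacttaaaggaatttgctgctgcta
Muc1 (chr3:89228806-89229055, + strand): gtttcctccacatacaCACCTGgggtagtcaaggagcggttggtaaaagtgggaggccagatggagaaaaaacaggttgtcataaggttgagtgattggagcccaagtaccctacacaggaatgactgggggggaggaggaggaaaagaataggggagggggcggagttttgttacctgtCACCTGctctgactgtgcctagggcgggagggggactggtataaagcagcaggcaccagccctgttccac
Epcam (chr17:87635729-87635978, + strand): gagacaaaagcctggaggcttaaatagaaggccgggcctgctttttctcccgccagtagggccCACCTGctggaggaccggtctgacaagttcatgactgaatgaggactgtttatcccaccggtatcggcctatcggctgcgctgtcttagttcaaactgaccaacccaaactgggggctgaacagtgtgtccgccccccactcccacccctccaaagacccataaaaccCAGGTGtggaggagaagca
Crb3 (chr17:57061951-57062200, + strand): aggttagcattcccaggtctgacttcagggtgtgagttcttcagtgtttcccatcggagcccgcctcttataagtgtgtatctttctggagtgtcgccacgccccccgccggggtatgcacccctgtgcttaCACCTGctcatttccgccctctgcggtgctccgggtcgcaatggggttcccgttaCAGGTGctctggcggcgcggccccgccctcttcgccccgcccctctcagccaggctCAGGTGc
The site in the Snai1 promoter began at position -126, counted back from the start. The Muc1 sites began at -234 and -70, the Epcam sites at -187 and -19, and the Crb3 sites at -118, -63 and -7. Searched on both strands in the same window, the E-box was held by 5252 of 27025 genes with a promoter in the RefSeq table, or 19.4%. Of the members, 6 had a promoter in the table and 1 held the site. Cdh1, Cdh2, Snai2 and Zeb1 had no promoter there and were not searched. Of 19 epithelial genes listed as repressed in EMT, 16 had a promoter in the table and 10 held the site, or 62.5%. Of 11 mesenchymal product genes with a promoter 0 did, and of 6 epithelial regulators with a promoter 3 did, or 50%. The list of 19 was drawn up as genes that EMT factors repress, so its higher share could follow from that choice. These are matches of letters, and binding was not measured.

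Array medians lay between 4.36 and 4.40 on the log2 scale of the deposited values. The leukocyte antigen Ptprc (CD45), against which the tumorigenic gate selected, was at 10.21 in mouse 1, 7.76 in mouse 2 and 3.82 in mouse 3 under that label, and between 2.33 and 3.59 under the other, so the populations are named here by their labels. The genes of positive selection, Cd24a and Thy1, had log2 differences of -0.55 (SE 0.27) and 0.24 (SE 0.42). Macrophage and leukocyte markers had a mean level of 5.78 to 10.57, lowest in mouse 3 and highest in mouse 1, against 4.26 to 4.37. The 3' control probe set of Gapdh exceeded the 5' one by 6.60 log2 units in the labelled tumorigenic array of mouse 2, and by 2.41 to 3.81 in the other 5 arrays. That gap widens with degraded RNA or short amplification products. The 3' control probe set of 18S ribosomal RNA was lower in all 3 arrays labelled tumorigenic, at 6.32 to 7.76 against 8.52 to 8.97. The part of these controls in the results was not tested. In bulk samples, fewer cells of a type and less RNA per cell cannot be told apart.

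None of the 10 genes separated the populations past the adjusted threshold. Of 15027 genes 0 were called by limma at an adjusted p below 0.05, which is 0% of the genes tested, and 0 of the 10 members. At an unadjusted p below 0.05 limma gave 1277 genes, or 8.5%, and 0 of the members. The adjusted p-values of the members ran from 0.723 to 0.989. Both populations occupied separate ranges in 12.5% of all genes and in 1 of the 10 members, Twist1, a share near that background. Of the 24 member probe sets past the filter, 0 were called among 33778 probe sets (0% called), 0 had an unadjusted p below 0.05 in limma where 7.69% of all probe sets did, and 1 had separate ranges where 11.5% did. The median absolute log2 difference was 0.23 for the members and 0.23 for all genes. Every difference given here takes the tumorigenic label minus the nontumorigenic one. It was positive in 8 members and negative in 2, Snai2 and Cdh1, with a median of 0.16 against 0.0051 over all genes. With mouse 1 left out of the population labelled tumorigenic, the members were 5 positive and 5 negative, with a median of 0.0070, and without both arrays of that mouse they were 6 and 4, with a median of 0.025. The median was 0.085 with mouse 3 left out of the population labelled nontumorigenic, and 0.31 with mouse 3 left out of the one labelled tumorigenic.

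**Figure D1:**
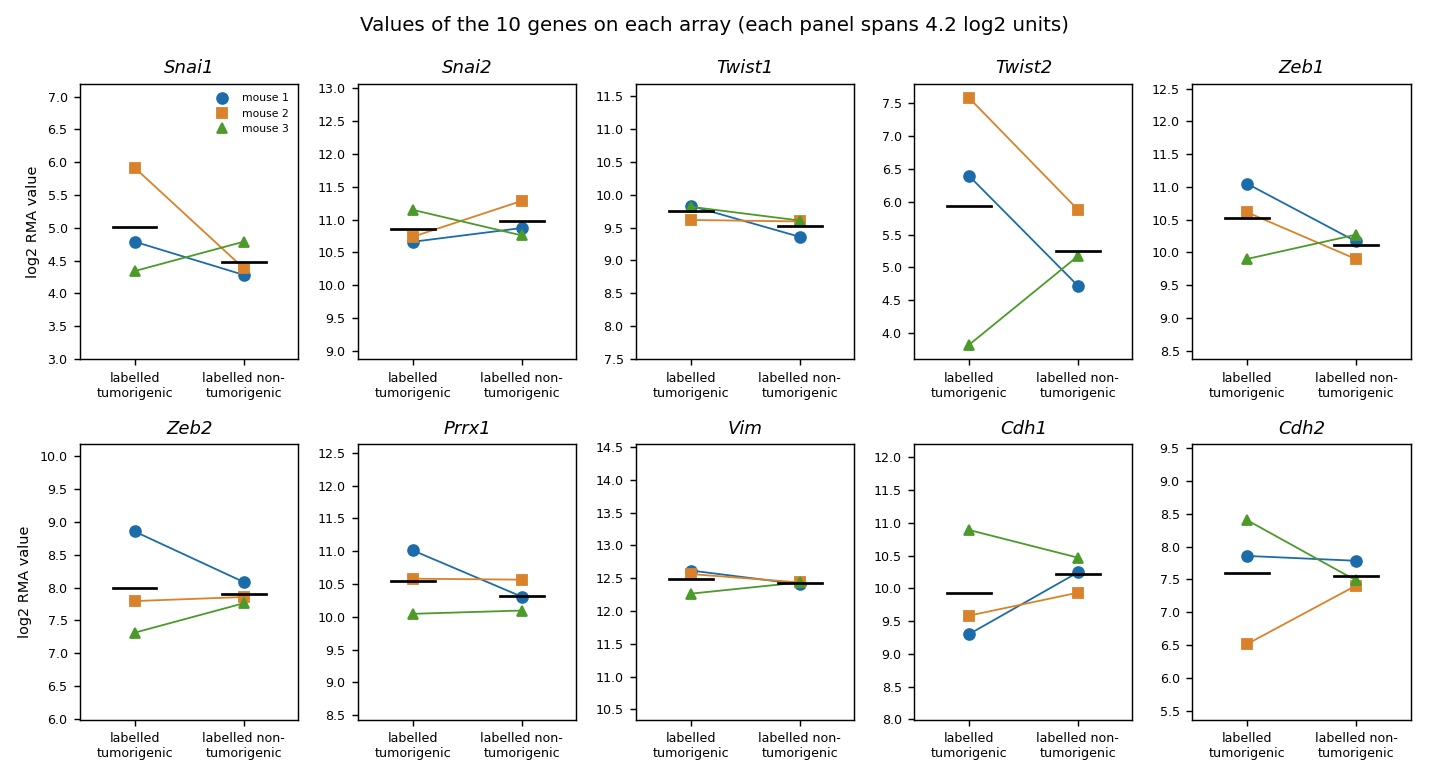
Log2 RMA value (vertical axis, 4.2 units in every panel) of each of the 10 genes in the 3 arrays labelled tumorigenic and the 3 labelled nontumorigenic. Symbols and lines join the arrays of a mouse, and black bars are population means; the populations overlap in every panel except Twist1, and Twist2 has the widest spread, from 3.82 to 7.59.

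The Snail family showed no shared direction. Snai1, the zinc-finger repressor first linked to loss of E-cadherin, read 4.79, 5.92 and 4.34 in the labelled tumorigenic arrays of mice 1, 2 and 3 and 4.28, 4.38 and 4.79 in the labelled nontumorigenic arrays. The array of mouse 2 labelled tumorigenic stood alone, and the other 5 values lay between 4.28 and 4.79, close to the array medians. The Snai1 means of the labelled tumorigenic and nontumorigenic arrays were 5.01 ± 0.81 and 4.48 ± 0.27 (SD, n = 3 each), which differed by 0.53 on the log2 scale (95% interval -0.49 to 1.56, limma adjusted p = 0.762). Leaving out that array, the one with the widest Gapdh gap, gave a Snai1 difference of 0.081. The part of that gap in the result was not tested. The labelled tumorigenic array of mouse 1 and the labelled nontumorigenic array of mouse 3 shared exactly the same Snai1 value.

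Snai2, also called Slug, is a repressor of basal mammary cells. It read 10.66, 10.74 and 11.15 in the arrays labelled tumorigenic and 10.87, 11.29 and 10.76 in those labelled nontumorigenic. The populations overlapped, with the highest value in the nontumorigenic array of mouse 2. The Snai2 difference was -0.12 (95% interval -0.67 to 0.42, limma adjusted p = 0.903), or -0.21, -0.55 and 0.39 within mice 1, 2 and 3. The x suffix of this probe set marks probes that may cross-hybridise, and the other Snai2 probe set gave -0.26.

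The paralogues Twist1 and Twist2 differed in how much they varied. Twist1, a helix-loop-helix factor of mesoderm and neural crest, read 9.83, 9.62 and 9.82 in the arrays labelled tumorigenic and 9.36, 9.59 and 9.61 in those labelled nontumorigenic. Every labelled tumorigenic value lay above every other value, though the closest pair, mouse 2 labelled tumorigenic and mouse 3 labelled nontumorigenic, nearly touched. The Twist1 difference was 0.24 (95% interval -0.16 to 0.63, limma adjusted p = 0.723), and it was positive in all 3 mice, at 0.47, 0.023 and 0.21. It was the only member with the same sign in all 3 mice, while 30.2% of all genes had that property. Once each array was centred on its median, the Twist1 ranges overlapped as well.

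Twist2, a factor of dermal and other fibroblasts, read 6.40, 7.59 and 3.82 in the arrays labelled tumorigenic and 4.72, 5.88 and 5.17 in those labelled nontumorigenic. It held both the highest and the lowest values in the same population, a spread of 3.77 log2 units, the widest of the 10 genes. The lowest, 3.82, lay below the array medians of 4.36 to 4.40, and a single probe set measured Twist2. The Twist2 means of the labelled tumorigenic and nontumorigenic arrays were 5.93 ± 1.93 and 5.26 ± 0.58 (SD, n = 3 each), which differed by 0.68 on the log2 scale (95% interval -1.63 to 2.99, limma adjusted p = 0.866). Within mice the differences were 1.68, 1.71 and -1.36. Fibroblast markers had a mean level of 10.59, 10.67 and 8.79 in mice 1, 2 and 3 under the tumorigenic label and 9.17, 10.06 and 10.02 under the other, with 8 of 10 markers positive and median differences of 1.25, 0.58 and -1.12 within mice. Without the labelled tumorigenic array of mouse 1, 4 of the 10 fibroblast markers were positive. The part of these markers in the Twist2 values was not tested.

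The Zeb genes encode large zinc-finger homeobox repressors of epithelial genes that are held back by miR-200 microRNAs. Zeb1 read 11.05, 10.61 and 9.90 in the arrays labelled tumorigenic and 10.17, 9.90 and 10.27 in those labelled nontumorigenic. Mice 1 and 2 were high in the first population, and mouse 3 fell within the second. The Zeb1 difference was 0.41 (95% interval -0.36 to 1.18, limma adjusted p = 0.760), or 0.88, 0.72 and -0.37 within mice. Of 4 Zeb1 probe sets, 3 passed the filter and gave 0.37 to 0.44.

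Zeb2 read 8.86, 7.79 and 7.31 in the arrays labelled tumorigenic and 8.08, 7.86 and 7.76 in those labelled nontumorigenic. Its labelled tumorigenic values lay both above and below the narrow span of the other population. The Zeb2 difference was 0.087 (95% interval -0.89 to 1.06, limma adjusted p = 0.966), and within mice it was 0.77, -0.062 and -0.45. The value depended on the probe set: 5 Zeb2 probe sets, of which 4 passed the filter, ran from -0.14 to 0.54. The highest of them, also the most variable, was positive in all 3 mice, at 0.77, 0.28 and 0.57. With the probe set that stood for the gene, the Zeb2 difference was -0.35 when the labelled tumorigenic array of mouse 1 was left out. That array also had the highest macrophage and leukocyte marker level, and the part of these markers in the Zeb2 values was not tested.

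Prrx1, a homeobox factor of limb and connective tissue mesenchyme, read 11.01, 10.58 and 10.05 in the arrays labelled tumorigenic and 10.31, 10.57 and 10.09 in those labelled nontumorigenic. Only mouse 1 stood clear of its partner array: the within-mouse differences were 0.71, 0.016 and -0.050. The Prrx1 difference was 0.22 (95% interval -0.47 to 0.92, limma adjusted p = 0.848). Its sign depended on the probe set, since 4 of 6 Prrx1 probe sets were negative and they ranged from -0.17 to 0.22.

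Vim, the intermediate filament protein of mesenchymal cells and a standard EMT marker, read 12.62, 12.56 and 12.26 in the arrays labelled tumorigenic and 12.41, 12.44 and 12.44 in those labelled nontumorigenic. The labelled nontumorigenic values were nearly identical, and the labelled tumorigenic ones lay on both sides of them. The Vim difference was 0.055 (95% interval -0.34 to 0.45, limma adjusted p = 0.943). On the linear scale that interval runs from 0.789-fold to 1.37-fold. All 3 Vim probe sets were positive, at 0.055 to 0.20.

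Neither cadherin passed the test, in a direction of a switch or against it. Cdh1, which encodes the E-cadherin of epithelial adherens junctions, read 9.30, 9.58 and 10.89 in the arrays labelled tumorigenic and 10.24, 9.93 and 10.47 in those labelled nontumorigenic. Mice 1 and 2 held the lowest values and mouse 3 the highest, all in the population labelled tumorigenic. The Cdh1 means of the labelled tumorigenic and nontumorigenic arrays were 9.92 ± 0.85 and 10.21 ± 0.27 (SD, n = 3 each), which differed by -0.29 on the log2 scale (95% interval -1.35 to 0.77, limma adjusted p = 0.878). Within mice the differences were -0.94, -0.35 and 0.42. A single probe set measured Cdh1.

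Cdh2, which encodes the N-cadherin of neural and mesenchymal cells, read 7.86, 6.51 and 8.41 in the arrays labelled tumorigenic and 7.78, 7.41 and 7.49 in those labelled nontumorigenic. Mouse 2 was the lowest and mouse 3 the highest, again both labelled tumorigenic. The Cdh2 difference was 0.034 (95% interval -1.14 to 1.21, limma adjusted p = 0.989), or 0.074, -0.89 and 0.92 within mice. Its other probe set gave -0.00080 over the 3 mice, and -0.29, 0.29 and -0.0090 within mice, so the probe sets had opposite signs in all 3 mice. In a cadherin switch the Cdh1 difference falls as the Cdh2 difference rises. Within mouse 1 the Cdh1 difference minus the Cdh2 difference was -1.02, within mouse 2 it was 0.54, and within mouse 3 it was -0.50. With the other Cdh2 probe set the same contrast was -0.66, -0.64 and 0.43, so its sign in mice 2 and 3 turned with the probe set. In mouse 3 the chosen probe sets of both cadherins were higher under the tumorigenic label.

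**Figure D2:**
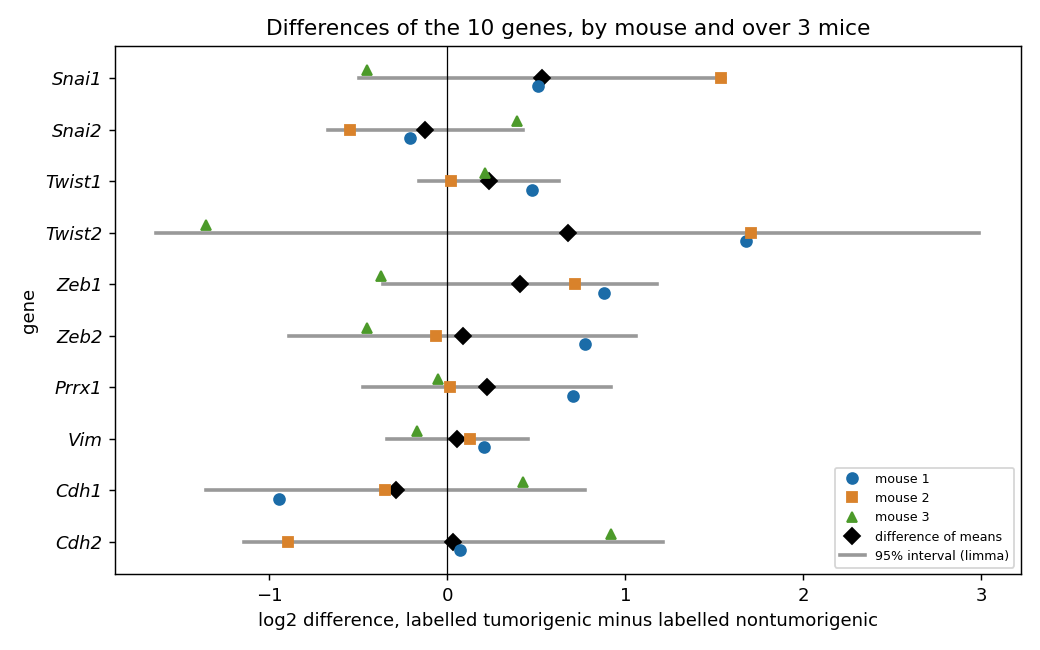
Log2 difference of each gene, labelled tumorigenic minus labelled nontumorigenic (horizontal axis), within mice 1 to 3 (coloured symbols) and over the 3 mice (black diamond with the 95% interval from limma). Every interval includes 0, and for Snai1, Twist2, Zeb1, Prrx1 and Vim mouse 3 lies below 0 where mice 1 and 2 lie above it.

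The direction of the members differed between mice. In mouse 1, 8 of 10 members had a positive difference, with a median of 0.49, where 45.4% of all genes were positive. In mouse 2 it was 6 of 10, with a median of 0.019 and 53.3% of all genes. In mouse 3 it was 4 of 10, with a median of -0.11 and 49.2% of all genes. Snai1, Twist2, Zeb1, Prrx1 and Vim were positive in mice 1 and 2 and negative in mouse 3, and Cdh1 and Snai2 were the reverse. The median SE was 0.36 for the members and 0.26 for all genes.

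Leaving out the labelled tumorigenic array of mouse 3, which had the lowest macrophage and fibroblast marker levels of its population, changed the counts. In mouse 3 the differences of Snai1, Twist2, Zeb1, Prrx1, Vim, Snai2 and Cdh1 had the sign opposite to mice 1 and 2. A rise of these counts on leaving out its array is thus partly fixed by the choice of array. Ranges were then separate in 7 of 10 members, with Twist1, Twist2, Zeb1, Prrx1 and Vim higher and Snai2 and Cdh1 lower, against 31.7% of all genes with 2 arrays left on that side. At an unadjusted p below 0.05 limma gave 3 members against 15.4% of all genes: Twist2 with a log2 difference of 1.74 (SE 0.50), Zeb1 with 0.72 (SE 0.23) and Cdh1 with -0.77 (SE 0.23). None of the 10 passed the adjusted threshold there either (lowest limma adjusted p = 0.215), while 18 genes elsewhere did. Basal markers, by contrast, were highest on the array left out, at a mean level of 10.76 against 9.48 to 9.94 on the other 5. The part of these markers in the change was not tested.

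**Figure D3:**
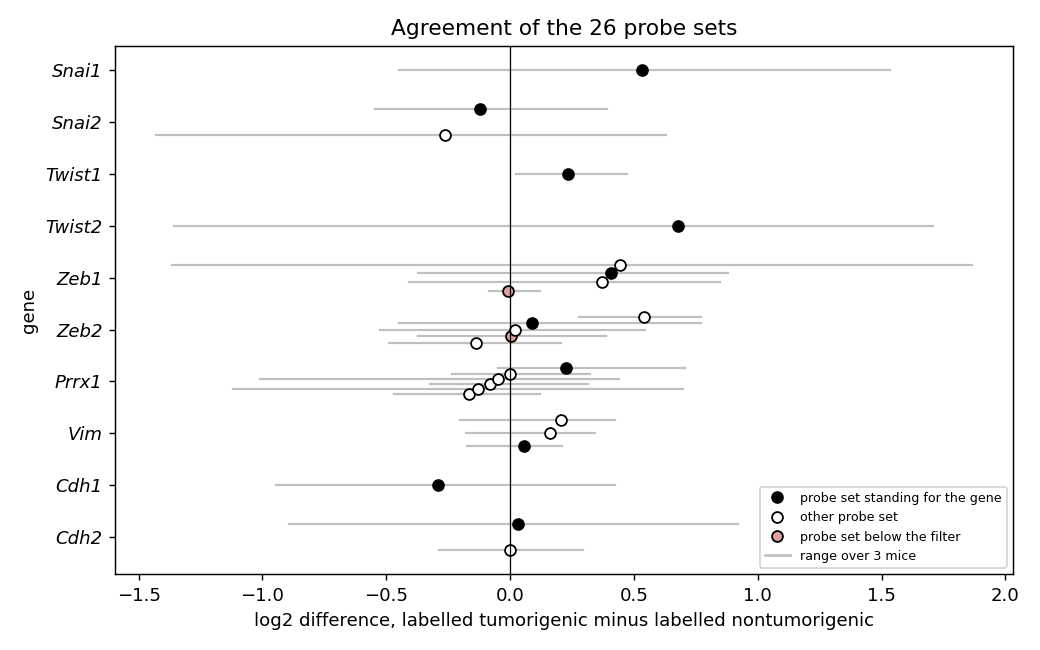
Log2 difference of each of the 26 probe sets of the 10 genes (circles), with grey lines for the range over the 3 mice. Filled circles stand for the gene, open circles are other probe sets and pink circles the 2 probe sets below the filter; the Prrx1, Zeb1, Zeb2 and Cdh2 probe sets lie on both sides of 0.

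The genes that work around the members were counted next, in lists that overlap in part with the marker lists. Other EMT transcription factors showed no common direction: of 10 measured, 5 were positive and 5 negative, with a median of -0.042, and 0 passed the adjusted threshold in either direction. The forkhead factor Foxc1 had a difference of -0.95 (SE 0.54), the Prrx1 relative Prrx2 0.47 (SE 0.30), the third Snail gene Snai3 0.40 (SE 0.35), and Tcf12, an E protein that pairs with Twist factors, -0.18 (SE 0.24). Corepressors and regulators of Snail stability had 6 positive and 10 negative genes of 16, with a median of -0.046 and 0 called. The kinase Lats2, which acts on Snai1, had 0.54 (SE 0.18) and was the 1 gene of the 16 that did not overlap between the populations, where 12.5% of all genes did not. The polycomb methyltransferase Ezh2 had -0.60 (SE 0.27), the ubiquitin ligase subunit Fbxw7 -0.33 (SE 0.27) and the corepressor Ctbp2 -0.38 (SE 0.31).

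Junction partners of the cadherins had small differences relative to their errors. Of 8 catenins and junction linkers, 2 were positive and 6 negative, with a median of -0.088 and 0 called. The alpha-catenin gene Ctnna1 had 0.28 (SE 0.18), plakoglobin Jup -0.46 (SE 0.31), the polarity gene Pard3 0.44 (SE 0.35) and the afadin gene Afdn -0.32 (SE 0.32). Among 8 other cadherins, 5 were positive and 3 negative, with a median of 0.16 and 0 called. Cdh13, a cadherin anchored by a lipid tail, read 7.95, 9.40 and 8.92 in the arrays labelled tumorigenic and 5.46, 7.09 and 7.46 in those labelled nontumorigenic, a difference of 2.09 (SE 0.62, limma adjusted p = 0.486). Its populations did not overlap, where 6.9% of all genes did not in that direction. Cdh5, the cadherin of endothelial cells, read 4.65, 4.77 and 4.47 in the arrays labelled tumorigenic and 4.12, 3.60 and 4.22 in the others. These values lay around the array medians. The Cdh5 difference was 0.65 (SE 0.22), and its populations did not overlap either. The muscle cadherin Cdh15 had -0.32 (SE 0.31) and Cdh10 0.51 (SE 0.56), the latter with values from 2.80 to 4.67. All 11 endothelial markers had positive differences, with a median of 1.36, and a mean level of 7.47 to 8.24 against 6.20 to 6.77. Their part in the Cdh5 and Cdh13 values was not tested.

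**Figure D4:**
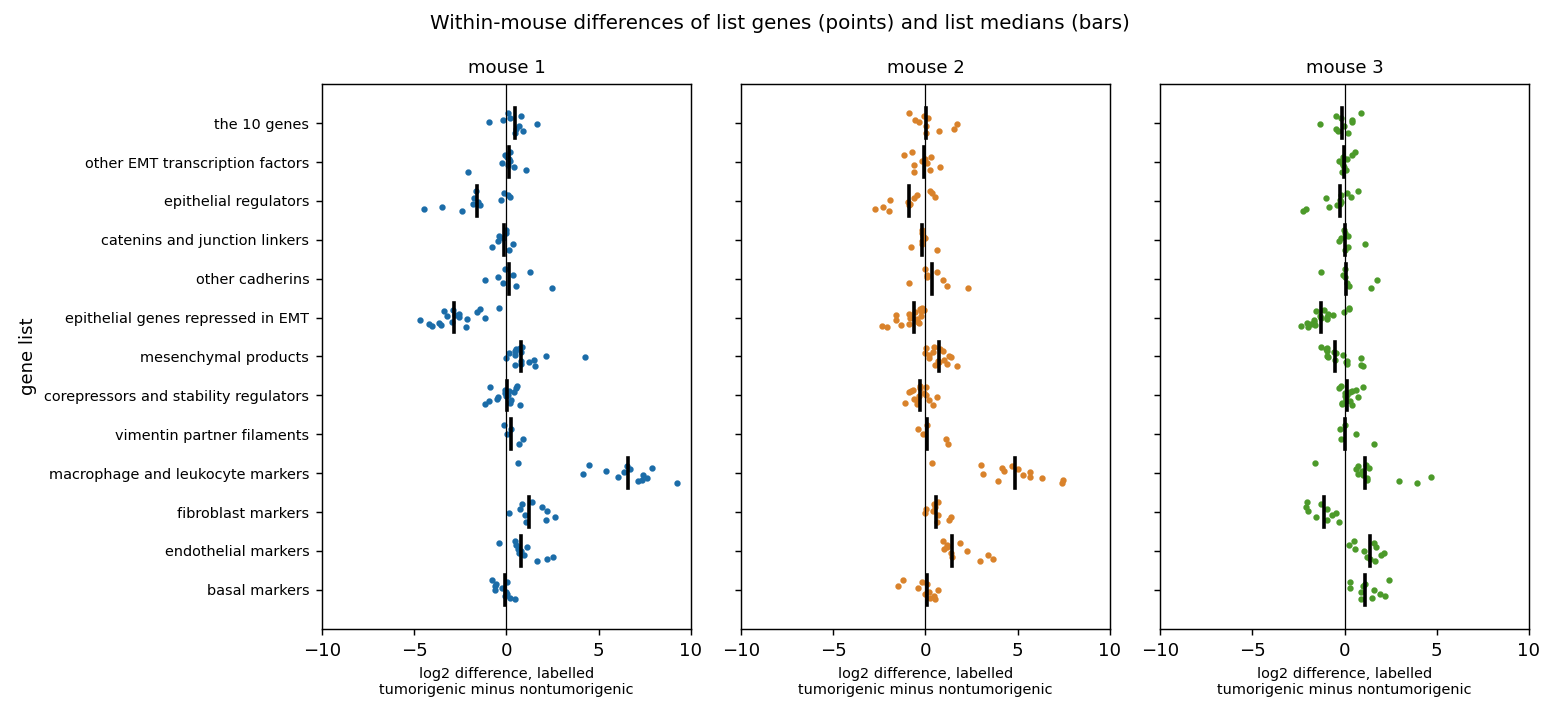
Log2 difference of each measured gene of 13 lists (points), labelled tumorigenic minus labelled nontumorigenic, within mice 1, 2 and 3, with black bars for list medians. The bars for epithelial genes repressed in EMT lie at -2.85, -0.64 and -1.29, those for the 10 genes at 0.49, 0.019 and -0.11, and those for fibroblast markers at 1.25, 0.58 and -1.12.

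Epithelial genes that EMT factors repress had lower mean values under the tumorigenic label in every gene measured, though none passed the adjusted threshold. All 18 measured genes were negative, with a median of -1.63, or -2.85, -0.64 and -1.29 within mice 1, 2 and 3, beside the median of 0.0051 over all genes. By limma 0 were called, 10 had an unadjusted p below 0.05 where 3.27% of all genes did in that direction, and in 12 the populations did not overlap where 5.59% of all genes did not. Without the array labelled tumorigenic of mouse 1 the median was -0.83. Without the array labelled nontumorigenic of mouse 1 or of mouse 3, 6 or 5 genes had an unadjusted p below 0.05, where 6.4% or 7.02% of all genes did in either direction. The tight junction gene Cldn1 read 4.54, 5.18 and 5.31 against 6.72, 7.24 and 7.31, a difference of -2.08 (SE 0.28, limma adjusted p = 0.220). The keratin gene Krt19 had -2.92 (SE 0.54) and the tricellular junction gene Marveld2 -2.29 (SE 0.64).

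The genes whose promoters are printed above differed in the size of their values. Muc1, a mucin of the luminal surface, read 3.95, 5.34 and 5.35 in the arrays labelled tumorigenic and 7.48, 6.68 and 6.95 in those labelled nontumorigenic, a difference of -2.16 (SE 0.44, limma adjusted p = 0.314). Epcam, an epithelial adhesion gene, had -1.66 (SE 0.71), and its populations overlapped. Crb3, an apical polarity gene with the most sites of the windows printed, had -0.13 (SE 0.24), the largest p of the list. Epithelial regulators pointed the same way, with 10 of 12 negative, a median of -0.90 and 0 called. Their medians within mice 1, 2 and 3 were -1.61, -0.87 and -0.25. Without the array labelled tumorigenic of mouse 1 their median was -0.55. The ETS factor Elf3, at 3.38 to 5.13 and so around the array medians, had -0.90 (SE 0.30). The ETS factors Ehf and Elf5 had -2.19 (SE 0.23) and -3.10 (SE 0.51), and the grainyhead factor Grhl1 had -2.22 (SE 0.73). Luminal markers, which share several of these genes, were negative in 11 of 12, with a mean level of 6.02 to 7.64 against 8.54 to 8.89. The part of luminal cell content was not tested.

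Mesenchymal products divided by mouse. Of 16 measured genes 14 were positive and 2 negative, with a median of 0.45, or 0.78, 0.72 and -0.50 within mice 1, 2 and 3, and 0 called. Without the array labelled tumorigenic of mouse 3 all 16 were positive, with a median of 0.67, and 12 did not overlap, where 31.7% of all genes did not with 2 arrays against 3. Without the array labelled tumorigenic of mouse 1 or of mouse 2, 11 were positive and 5 negative, with medians of 0.45 and 0.32. The median was 0.19 without both arrays of mouse 1, and 0.20 with a gene's probe sets averaged. The fibronectin receptor gene Itga5 had 1.41 (SE 0.30, limma adjusted p = 0.328), the actin-binding Tagln 0.64 (SE 0.18), the matrix gene Tnc 0.69 (SE 0.23) and the membrane protease Mmp14 0.67 (SE 0.30). Itga5, Tagln and Tnc did not overlap between the populations, where 6.9% of all genes did not in that direction. With the most variable probe set of each gene, 1 of the 16 did not overlap, where 12.5% of all genes did not in either direction. Tagln is also in the basal marker list. Macrophage and leukocyte markers were positive in 13 of 14, with a median of 4.40, and within mice 6.61, 4.85 and 1.09. Fibroblast markers were positive in 8 of 10, with medians of 1.25, 0.58 and -1.12 within mice 1, 2 and 3, and in all 10 without the array labelled tumorigenic of mouse 3. Without the array labelled tumorigenic of mouse 1 or of mouse 2, 4 fibroblast markers were positive and 6 negative, with medians of -0.225 and -0.14. The same counts held without the array labelled nontumorigenic of mouse 1, with a median of -0.107. The part of both marker lists, or of the basal one, in the mesenchymal products was not tested. Among filaments that assemble with vimentin or tie to it, Synm had 1.16 (SE 0.31), Des 0.61 (SE 0.40), Plec 0.17 (SE 0.24) and Nes -0.14 (SE 0.42), with 3 of 5 positive, a median of 0.17 and 0 called.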

How the data were processed

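Transcript levels were measured in 6 arrays, 3 per population. The deposited log2 values per probe set are the authors' output of RMA, the robust multi-array average, as named per the labels. Its version and background step were not given in the sources used here. The log2 scale was inferred from the range, 1.59 to 13.87. RMA would remove a change shared by most transcripts. Arrays have no depth, and their number limits the precision.

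Of 45101 probe sets, 64 were controls and were left out. Of the rest, 34945 had 1 gene symbol in the platform annotation, 932 several and 9160 none, and 34741 were matched by Entrez identifier to RefSeq genes of GRCm38.p6. Probe sets in the lowest 25% by mean, below 2.98, were left out, and the brightest remaining probe set by mean stood for its gene. Populations were compared by limma 3.58.1 (lmFit and eBayes, R 4.3.3, two-sided, Benjamini-Hochberg at 0.05) over 15027 genes and over 33778 probe sets, without covariates. The code was tested on simulated data. SE and 95% intervals are from limma. An exact permutation test of 3 against 3 cannot go below 0.1 and was not used.

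The titles name the same 3 mice in both populations, so mouse numbers pair the arrays. After centring on population means, arrays of a mouse correlated across genes at 0.079, 0.136 and 0.086, against -0.083 to -0.010 for different mice. The contrast is partly fixed by the centring, since positive values within a mouse force negative ones between mice. Alternatives were the mouse as a block, other filters, scalings, priors, array weights and probe set rules, and leaving out each array. Leaving out each mouse was added after the data were seen. Genes named were the members, up to 4 per list with the smallest p, the sort genes, and for members spanning at least 1 log2 unit the 3 genes with the nearest profile. Muc1, Epcam and Crb3 were named also for their promoters. The members and lists were chosen with earlier results of these data known, so no list was tested as a set.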

Additional observations from a re-analysis of the deposited data

How the results depend on the processing

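Across 9 alternatives in processing, 0 members passed the adjusted threshold, as in the reported fit, and the same held in 9 fits without an array or a mouse, where the smallest limma adjusted p of any member was 0.215. With the mouse as a replicate block, 0 of 10 members and 0 genes passed, 0 members had an unadjusted p below 0.05, and no call changed. The count of all genes past the threshold was 0 in the reported fit, 1 with no filter on dim probe sets and 1 with a gene's probe sets averaged, and it was 0 to 18 when an array or mouse was left out. For probe sets it was 0, or 1 with a trended and robust prior, and 0 to 8 when arrays were left out. The count of members with ranges that did not overlap was 1, or 0 with each array centred on its median, and 1 to 8 when arrays were left out. It was 7 without the labelled tumorigenic array of mouse 3, 8 without both arrays of that mouse, where 41.6% of all genes did not overlap, and 2 without the labelled tumorigenic array or both arrays of mouse 2, where 19.9% and 33.3% did not. Members with an unadjusted p below 0.05 numbered 0, and 0 to 3 when arrays were left out, with 3 without the labelled tumorigenic array and 1 without both arrays of mouse 3, where 15.4% and 12.6% of all genes did. For several members mouse 3 had the sign opposite to mice 1 and 2, so a rise on leaving it out is partly fixed by that choice. The cause was not tested. Of the 10 differences, 8 kept their sign under all 9 alternatives. Prrx1 turned to -0.033 with the mean of its probe sets and to -0.13 with its most variable probe set, and Cdh2 turned to -0.19 with array weights. When an array or mouse was left out, Snai1, Twist1 and Zeb1 kept their sign, at 0.030 to 1.02, 0.12 to 0.34 and 0.14 to 0.80. The others did not in every case: Snai2 ran from -0.38 to 0.090, Twist2 from -0.15 to 1.74, Zeb2 from -0.35 to 0.42, Prrx1 from -0.017 to 0.47, Vim from -0.022 to 0.17, Cdh1 from -0.77 to 0.036 and Cdh2 from -0.41 to 0.57. The median of the 10 genes was 0.14 to 0.16 over the scalings, and 0.0070 to 0.31 when arrays were left out. That of the epithelial genes repressed in EMT was -1.65 to -1.63, and -2.06 to -0.83 when arrays were left out.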

Other observations

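For the members spanning at least 1 log2 unit, the genes with the nearest profile over the 6 arrays were found by the root mean square distance between mean-centred values, as a description of 6 arrays from 3 mice. Twist2 was closest to the growth factor gene Mdk (distance 0.17 log2 units), the cathepsin gene Ctsk (0.18) and the matrix gene Ogn (0.19), where the median distance over 15027 genes was 1.25. Zeb1 lay closest to 4930592A05Rik (0.049), the Wnt ligand gene Wnt2 (0.057) and Sh3tc1 (0.071). Zeb2 lay closest to the transporter gene Slco3a1 (0.057), Ebf2 (0.070), a factor of adipose progenitors, and Trabd2b (0.087). Snai1 lay closest to the forkhead gene Foxp2 (0.11), C430002N11Rik (0.12) and the collagenase gene Mmp8 (0.15). The nearest profiles to Cdh1 were those of Catsperz (0.16), the proprotein convertase gene Pcsk6 (0.17) and Tes (0.17), and to Cdh2 those of the kinesin gene Kif3a (0.067), Zkscan3 (0.17) and Foxc2 (0.20).

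Other marker lists varied by mouse. T and NK cell markers were positive in 8 of 9 genes, with a median of 1.12, and within mice 3.13, 0.0090 and 0.085. It was -0.043 without the array labelled tumorigenic of mouse 1. Adipocyte markers were positive in all 4 measured genes, with a median of 0.76, within mice 0.64, 1.46 and 0.48, and of 0.26 without the array labelled tumorigenic of mouse 2. Pericyte markers were positive in 5 of 8, with a median of 0.049, which ran from -0.29 to 0.33 when arrays were left out. Basal markers were positive in 9 of 11, with medians of -0.054, 0.057 and 1.10 within mice 1, 2 and 3, and in 5 of 11 without the array labelled tumorigenic of mouse 3. None of these 4 lists held a gene past the adjusted threshold.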
